A study of Mus musculus with 8 samples.

Results

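The genes of MHC class I antigen presentation were examined by RNA sequencing in the whole aorta of atherosclerotic mice. The group holds 10 genes chosen by name, H2-K1, H2-D1, B2m, Tap1, Tap2, Tapbp, Psmb8, Psmb9, Nlrc5 and Erap1, out of 48607 loci in the table of the authors. Where a symbol named more than 1 locus, the locus with the most counts was taken. All 10 genes were found, and all were among the 20506 loci tested, which had at least 1 FPKM (fragments per kilobase of transcript, relative to all fragments mapped in a library) in at least 3 libraries. Of the 10 genes, 9 were above 1 FPKM in all 8 libraries. Psmb9 was above it in the 5 libraries titled ApoE-/- and in 1 titled NPRC-/-ApoE-/-, so it passed through the group in which it was higher.

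Both groups of mice lacked Apoe and received a Western diet for 12 weeks, so the Apoe deletion and the diet were shared by the controls. The second group also lacked NPRC, the natriuretic peptide receptor C encoded by Npr3, through a frameshift made with CRISPR/Cas9 in all tissues of C57BL/6 mice. The question was how loss of NPRC changes gene expression in the aorta, a tissue that holds smooth muscle, endothelium, leukocytes and surrounding fat. Ages are not in the labels, and the methods of the study give 5 mice per group.

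The titles put 5 libraries in ApoE-/- and 3 in NPRC-/-ApoE-/-. A separate genotype entry matched the title in 4 of the 8 libraries, ApoE-/- 1, 2 and 3 and NPRC-/-ApoE-/- 3, and gave the other genotype for the 4 titled ApoE-/- 4, ApoE-/- 5, NPRC-/-ApoE-/- 1 and NPRC-/-ApoE-/- 2. Which label applies cannot be told from the sources used here, so the results of the 10 genes are given under both. Libraries are called by their titles. The total count per library was 62969165 to 86693276, and no pair of libraries differed by as little as sampling noise. The FPKM of Npr3 was 1.69, 0.93, 0.62, 1.01 and 1.67 in ApoE-/- 1 to 5 and 1.18, 1.39 and 1.13 in NPRC-/-ApoE-/- 1 to 3. Its level overlapped between the groups by title (two-sided exact permutation test, p = 0.75) and by entry (p = 0.679, smallest p possible 0.0357). Whether the frameshift lowers the transcript of Npr3 was not tested, so this level does not settle which label is right.

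MHC class I molecules display peptides from inside the cell to CD8 T cells and are watched by receptors of natural killer cells. Peptides are cut by the proteasome, whose inducible subunits replace constitutive ones in immune cells and after interferon, and are carried into the endoplasmic reticulum by the Tap1 and Tap2 transporter. There Tapbp (tapasin) holds the empty class I molecule at the transporter, Erap1 trims the peptide, and the heavy chain (H2-K1 or H2-D1) is displayed together with B2m. Nlrc5 is the transactivator of the class I genes, and nearly all nucleated cells express this pathway, leukocytes most strongly.

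Of the 10 genes, 7 lie on chromosome 17 in the mouse build GRCm38. Psmb9, Tap1, Psmb8 and Tap2 stand side by side within 34335 bp, chr17:34181987-34216321, and the loci of Psmb9 (minus strand) and Tap1 (plus strand) overlap by 212 bp at their starts. The other loci on this chromosome are H2-K1 (chr17:33996017-34000347, minus strand), Tapbp (chr17:33915899-33929292, plus strand) and H2-D1. B2m is at chr2:122147686-122153083, Nlrc5 at chr8:94434356-94527272 and Erap1 at chr13:74614471-74693201, all on the plus strand. The promoters of the heavy chains, B2m and Tap1 are shown because they hold the letters read by the factors that drive class I genes. Each is the RefSeq stretch of 250 bases before the start site in GRCm38.p6, 5′ to 3′ on the strand of the gene. Capitals mark AANNGAAA (core of an interferon regulatory factor site, TTTCNNTT on the other strand), GGGNNTTCC (NF-kB, GGAANNCCC on the other strand) and TGACG (the core of a cyclic AMP response element and of the X2 box of class I promoters, CGTCA on the other strand).
H2-K1 (chr17:34000348-34000597, minus strand): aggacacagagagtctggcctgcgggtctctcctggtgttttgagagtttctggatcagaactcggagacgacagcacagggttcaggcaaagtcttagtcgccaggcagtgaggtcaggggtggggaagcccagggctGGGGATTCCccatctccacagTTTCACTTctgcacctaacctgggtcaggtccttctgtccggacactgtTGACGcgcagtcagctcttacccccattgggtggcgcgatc
H2-D1 (chr17:35262844-35263093, plus strand): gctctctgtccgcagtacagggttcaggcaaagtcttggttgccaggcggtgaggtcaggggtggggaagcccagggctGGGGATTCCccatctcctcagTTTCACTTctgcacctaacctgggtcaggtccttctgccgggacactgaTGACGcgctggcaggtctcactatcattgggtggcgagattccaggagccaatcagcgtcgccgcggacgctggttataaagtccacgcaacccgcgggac
B2m (chr2:122147437-122147686, plus strand): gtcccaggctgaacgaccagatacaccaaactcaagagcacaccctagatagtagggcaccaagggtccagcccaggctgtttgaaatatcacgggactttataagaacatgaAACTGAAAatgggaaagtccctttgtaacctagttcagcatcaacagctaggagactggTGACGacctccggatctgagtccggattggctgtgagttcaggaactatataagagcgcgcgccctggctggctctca
Tap1 (chr17:34187306-34187555, plus strand): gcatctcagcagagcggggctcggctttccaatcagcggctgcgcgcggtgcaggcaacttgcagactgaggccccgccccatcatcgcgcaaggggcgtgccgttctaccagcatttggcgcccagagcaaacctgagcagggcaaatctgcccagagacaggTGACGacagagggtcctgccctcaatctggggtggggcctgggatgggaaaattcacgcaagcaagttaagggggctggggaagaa

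The windows of H2-K1 and H2-D1 held all 3 motifs, in the same order and at the same distances. From the start of the NF-kB letters to the start of the interferon factor letters there were 21 bases in both, and from there to TGACG 49 bases in both. Lined up without gaps at the NF-kB letters, 166 of 190 bases (87.4%) were the same. The B2m window held the interferon factor letters and TGACG, and the Tap1 window TGACG alone. The Psmb9 window runs over the same stretch on the other strand and shares that TGACG match, at chr17:34187470-34187474. A RefSeq window was found for 8 of the 10 genes, which leaves Tap2 and Nlrc5. Of these 8, 3 held the interferon factor letters, 2 the NF-kB letters and 5 TGACG, while 21.3%, 4.98% and 17.8% of all 32851 windows held them. No match of these letters was found in the windows of Tapbp, Psmb8 and Erap1. Matches are a description of the sequence and were not tested for binding.

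By title, all 10 genes had a lower level in NPRC-/-ApoE-/- than in ApoE-/- aortas, with log2 fold changes from −1.48 for Psmb9 to −0.22 for Erap1 and a median of −0.80, against −0.01 over all 20506 loci tested. None of the 10 passed the test after adjustment over all loci (Benjamini-Hochberg adjusted p from 0.191 to 0.512, edgeR's quasi-likelihood test). The same test gave 0 loci with an adjusted p-value under 0.05 of all those tested, with 1462 lower and 1335 higher at an unadjusted p-value under 0.05. With DESeq2 650 loci had such an adjusted p-value, B2m (9.4e-05) and Psmb9 (0.0076) among them. Without adjustment, 5 of the 10 (B2m, Psmb9, Tap1, Psmb8 and Tap2) were lower with a p-value under 0.05, while 7.13% of all loci were. In 3 of the 10 (B2m, Tap2 and Psmb9), every NPRC-/-ApoE-/- library was below every ApoE-/- library, which held for 4.37% of all loci. The criterion of the study, a fold change under 0.5 with an unadjusted p-value under 0.05, was met by 3 (Tap1, Psmb8 and Psmb9), and by 2.39% of all loci in that direction. Psmb9 is in each of these counts, although it passed the filter through the ApoE-/- libraries, where it was higher.

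By genotype entry, the 10 genes were also all lower in the libraries entered as lacking NPRC, but with smaller differences. The log2 fold changes ran from −0.62 for Psmb9 to −0.04 for Erap1, with a median of −0.35 against −0.00 over all loci. None of the 10 had an unadjusted p-value under 0.05, which 0.697% of all loci had in that direction. None was free of overlap between the groups, against 0.566% of all loci. Every adjusted p-value was 1.0, and 0 of all loci tested had one under 0.05, with 143 lower and 126 higher at an unadjusted p-value under 0.05 (edgeR) and 9 at an adjusted p-value under 0.05 with DESeq2. The libraries are the same under both labels, so these are not 2 independent comparisons.

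**Figure D1:**
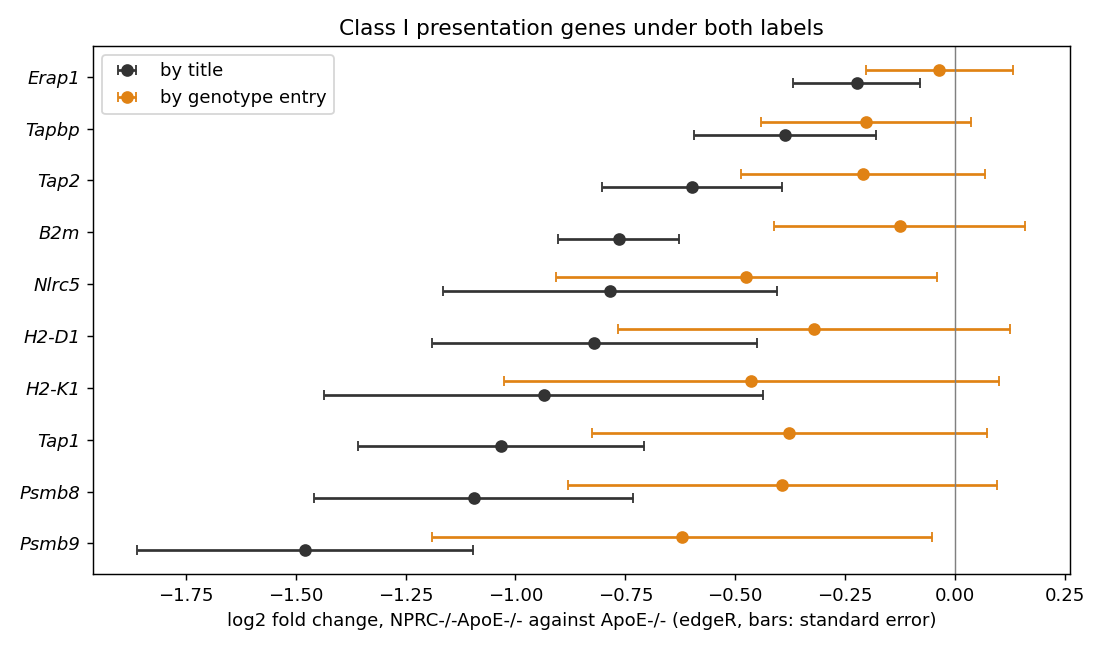
Log2 fold change of the 10 genes, NPRC-/-ApoE-/- against ApoE-/- (x axis, edgeR), by title (dark) and by genotype entry (orange), 5 libraries against 3 in both. Bars are standard errors calculated from the F value of the test. All points lie below 0, from −1.48 to −0.22 by title and from −0.62 to −0.04 by entry.

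B2m, the light chain shared by all class I molecules, had the highest FPKM of the 10 genes in each library. It was 172, 190, 180, 162 and 157 FPKM in ApoE-/- 1 to 5 and 117, 93.9 and 89.3 FPKM in NPRC-/-ApoE-/- 1 to 3. The lowest ApoE-/- library was well above the highest NPRC-/-ApoE-/- library, and the spread within each titled group was small, with 172 ± 13.5 FPKM (SD, n = 5) against 100.1 ± 14.9 (SD, n = 3). The log2 fold change by title was −0.77 (standard error 0.14, adjusted p = 0.191). By entry the groups were 150.5 ± 42.4 (SD, n = 5) and 135.9 ± 40.5 FPKM (SD, n = 3) and overlapped, and the log2 fold change was −0.13 (standard error 0.29). The B2m locus overlaps Patl2 on the opposite strand, and whether the counting used strand is not given in the sources used here.

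The heavy chains present the peptide and varied more between libraries. H2-K1 was at 35.8, 96.2, 50.4, 57.5 and 33.5 FPKM in ApoE-/- 1 to 5 and at 54.1, 15.6 and 15.9 FPKM in NPRC-/-ApoE-/- 1 to 3. NPRC-/-ApoE-/- 1 lay within the range of the ApoE-/- libraries, whereas NPRC-/-ApoE-/- 2 and 3 lay below all of them. H2-D1 was at 76.9, 135, 117, 117 and 64.0 FPKM and at 94.1, 41.8 and 37.6 FPKM, with the same libraries high and low. The log2 fold change by title was −0.94 for H2-K1 (standard error 0.50, adjusted p = 0.434) and −0.82 for H2-D1 (standard error 0.37, adjusted p = 0.374), and by entry −0.46 and −0.32. H2-D1 cannot be read as a single gene. Its assembled locus runs over 295174 bp, chr17:35262730-35557903, which is 61.9 times the length of the annotated gene and spans 10 other protein-coding genes of the same strand, H2-Q genes among them. In the annotated transcripts, 4.64% of the 100-base windows of H2-D1 also occur in other genes, against 0% for H2-K1 and B2m.

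Tap1 and Tap2 form the transporter that brings peptides into the endoplasmic reticulum. Tap1 was at 3.27, 5.70, 3.83, 3.62 and 2.67 FPKM in ApoE-/- 1 to 5 and at 2.85, 1.32 and 1.38 FPKM in NPRC-/-ApoE-/- 1 to 3. Only ApoE-/- 5 was below NPRC-/-ApoE-/- 1 among the ApoE-/- libraries. Tap2 was at 6.98, 11.3, 8.59, 8.19 and 6.55 FPKM and at 6.40, 5.14 and 4.78 FPKM, so that the groups did not overlap but met closely at ApoE-/- 5 and NPRC-/-ApoE-/- 1. By title the log2 fold change was −1.03 for Tap1 (standard error 0.33, adjusted p = 0.285) and −0.60 for Tap2 (standard error 0.20, adjusted p = 0.309), and by entry −0.38 and −0.21. Tapbp, which tethers the class I molecule to this transporter, varied less. It was at 14.4, 16.6, 19.97, 16.7 and 13.03 FPKM and at 15.6, 11.2 and 10.1 FPKM, and the groups overlapped through NPRC-/-ApoE-/- 1. Its log2 fold change by title was −0.39 (standard error 0.21, adjusted p = 0.434), and −0.20 by entry, for a locus whose counts include Zbtb22.

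Psmb8 and Psmb9, subunits of the inducible proteasome, had the largest fold changes of the 10 genes by title. Psmb9 was at 2.11, 3.41, 2.23, 1.64 and 1.59 FPKM in ApoE-/- 1 to 5 and at 1.29, 0.56 and 0.47 FPKM in NPRC-/-ApoE-/- 1 to 3, with every NPRC-/-ApoE-/- library below every ApoE-/- library. Psmb8 was at 3.10, 4.87, 3.76, 3.75 and 2.21 FPKM and at 2.68, 1.24 and 1.03 FPKM, and the groups overlapped because ApoE-/- 5 was below NPRC-/-ApoE-/- 1. The log2 fold change by title was −1.48 for Psmb9 (standard error 0.38, adjusted p = 0.255) and −1.10 for Psmb8 (standard error 0.36, adjusted p = 0.291). By entry it was −0.62 and −0.39, with overlapping groups for both. Psmb9 passed the filter through the ApoE-/- libraries and was under 1 FPKM in NPRC-/-ApoE-/- 2 and 3.

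**Figure D2:**
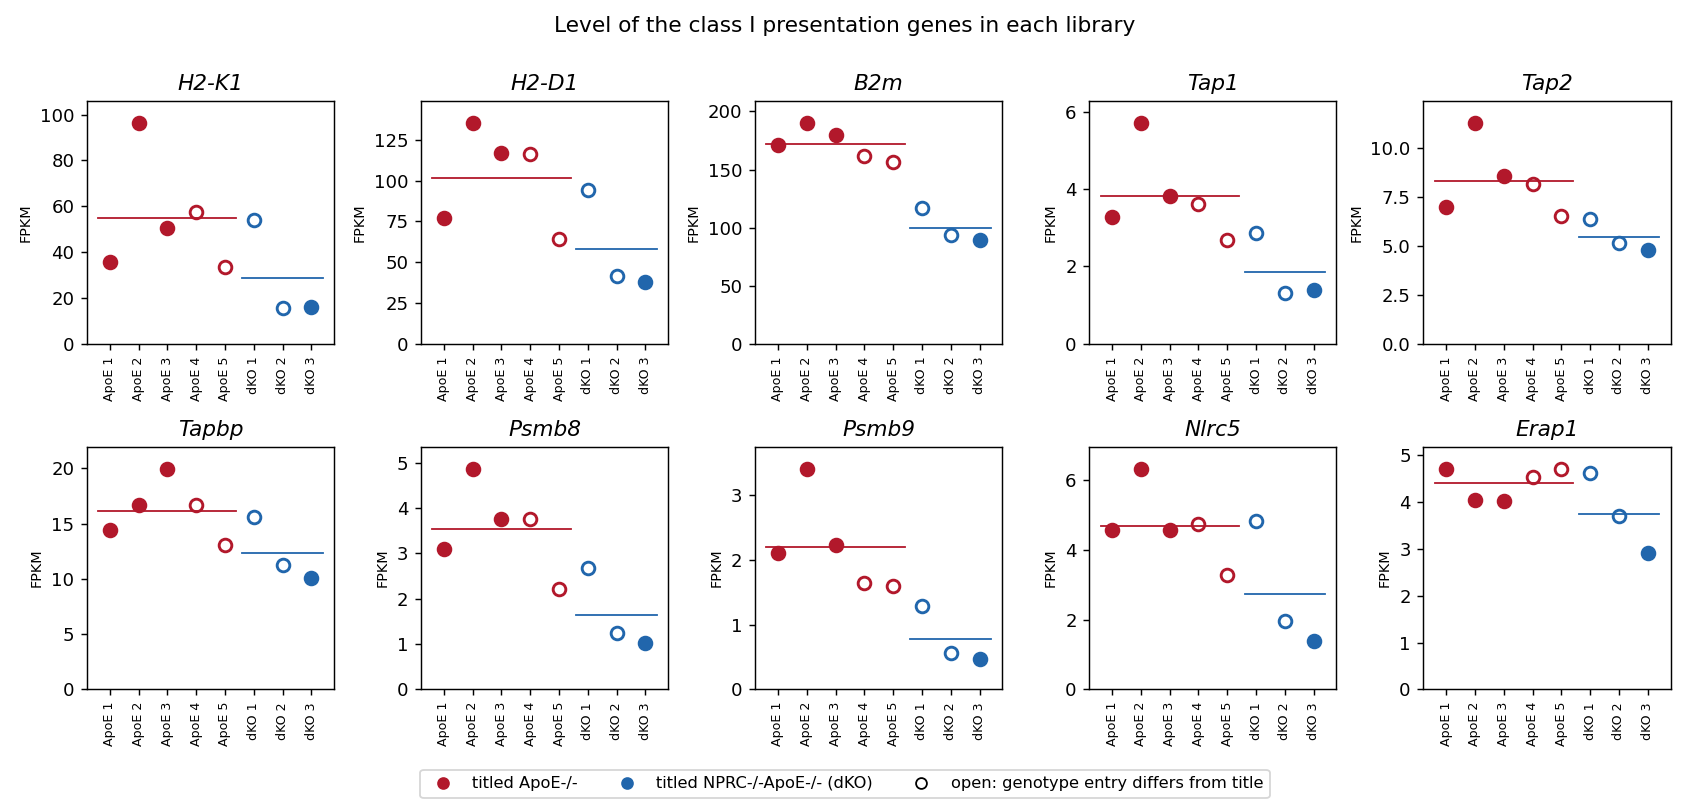
FPKM (y axis, from 0) of each of the 10 genes in the 8 libraries (x axis), red for libraries titled ApoE-/- and blue for those titled NPRC-/-ApoE-/- (dKO), with open points where the genotype entry differs from the title and lines at the mean of each titled group. NPRC-/-ApoE-/- 2 and 3 are the lowest libraries in all 10 panels, and the titled groups are apart for B2m, Tap2 and Psmb9.

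Each inducible subunit takes the place of a constitutive one, so their log2 FPKM ratio was taken in each library. The ratio of Psmb8 to Psmb5 was −2.67, −2.89, −2.97, −3.22 and −3.27 in ApoE-/- 1 to 5 and −3.60, −3.90 and −3.93 in NPRC-/-ApoE-/- 1 to 3. The titled groups did not overlap, with means of −3.00 ± 0.24 (SD, n = 5) and −3.81 ± 0.18 (SD, n = 3). The ratio of Psmb9 to Psmb6 was −3.31, −3.42, −3.99, −4.61 and −3.66 and −4.64, −5.12 and −5.36, so that the groups met at ApoE-/- 4 and NPRC-/-ApoE-/- 1. For the third inducible subunit, Psmb10, the ratio to Psmb7 was −0.41, 0.07, 0.47, 0.03 and −1.09 and −0.08, −1.25 and −1.07, and the groups overlapped. By entry all 3 ratios overlapped, with differences of −0.26 for Psmb8, −0.45 for Psmb9 and −0.47 for Psmb10. The ratio of Psmb9 rests on 0.56 and 0.47 FPKM in NPRC-/-ApoE-/- 2 and 3. How often ratios of other loci are free of overlap between the groups was not determined.

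**Figure D3:**
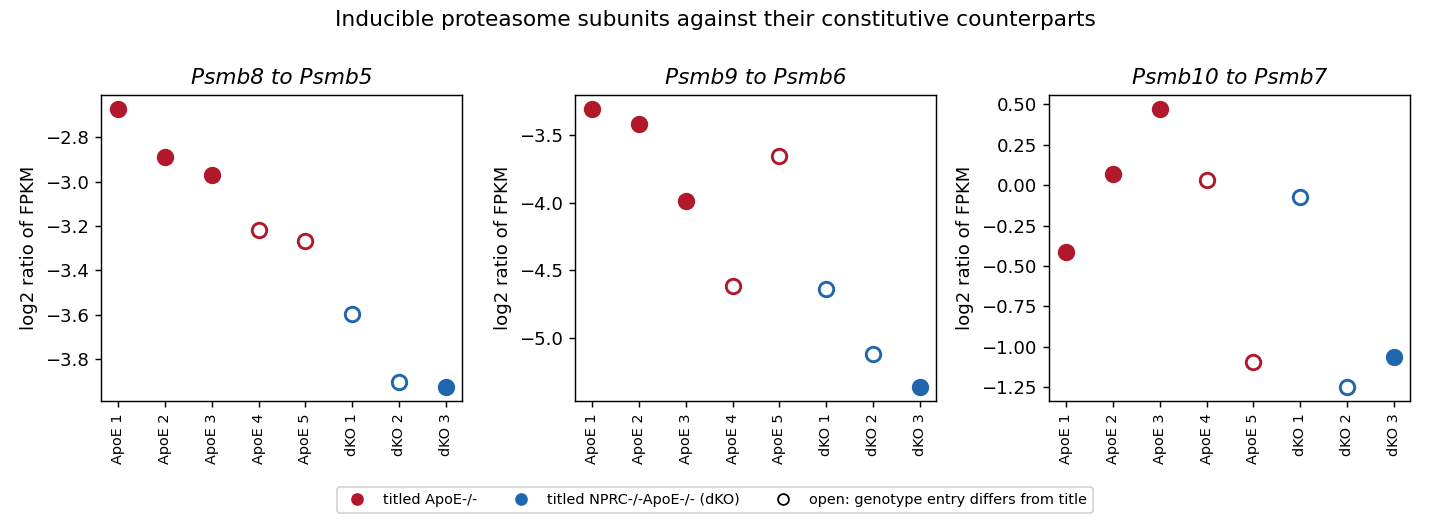
Log2 ratio of the FPKM of each inducible proteasome subunit to the constitutive subunit it replaces (y axis) in the 8 libraries (x axis), coloured by title and open where the genotype entry differs. The titled groups are apart for Psmb8 to Psmb5 and, narrowly, for Psmb9 to Psmb6, and overlap for Psmb10 to Psmb7.

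Nlrc5 and Erap1 stood apart from the other genes in different ways. Nlrc5 was at 4.57, 6.34, 4.57, 4.75 and 3.29 FPKM in ApoE-/- 1 to 5 and at 4.84, 1.97 and 1.38 FPKM in NPRC-/-ApoE-/- 1 to 3. Here NPRC-/-ApoE-/- 1 was second only to ApoE-/- 2, and the other NPRC-/-ApoE-/- libraries were below all the rest. A log2 fold change of −0.78 was found by title (standard error 0.38, adjusted p = 0.399), against −0.47 by entry. Erap1, the trimming peptidase, was the least variable gene, at 4.71, 4.05, 4.02, 4.54 and 4.70 FPKM and at 4.61, 3.69 and 2.90 FPKM. Its highest library was 1.62 times its lowest, against 7.26 times for Psmb9, 6.15 for H2-K1 and 2.13 for B2m. Erap1 had a log2 fold change of −0.22 (standard error 0.14, adjusted p = 0.512) with the titles, against −0.04 with the entries. The Erap1 locus overlaps Cast on the opposite strand.

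Across the 8 libraries the 10 genes had the same libraries at the low end. NPRC-/-ApoE-/- 2 and 3 were the lowest pair for all 10 genes, as they were for 16.7% of all loci tested, and their genotype entries differ from each other. ApoE-/- 2 was the highest library for 8 genes, while ApoE-/- 3 was the highest for Tapbp and ApoE-/- 1 for Erap1. The third lowest library was ApoE-/- 5 for 6 genes and NPRC-/-ApoE-/- 1 for 3. As a description over libraries that also differ in group, Pearson's r of log2 CPM between pairs of the genes was 0.45 to 0.98 over 45 pairs with a median of 0.90. Of these, the 9 pairs with Erap1 had 0.45 to 0.78 and the other 36 had 0.77 to 0.98, the highest for Tap1 with Psmb8.

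**Figure D4:**
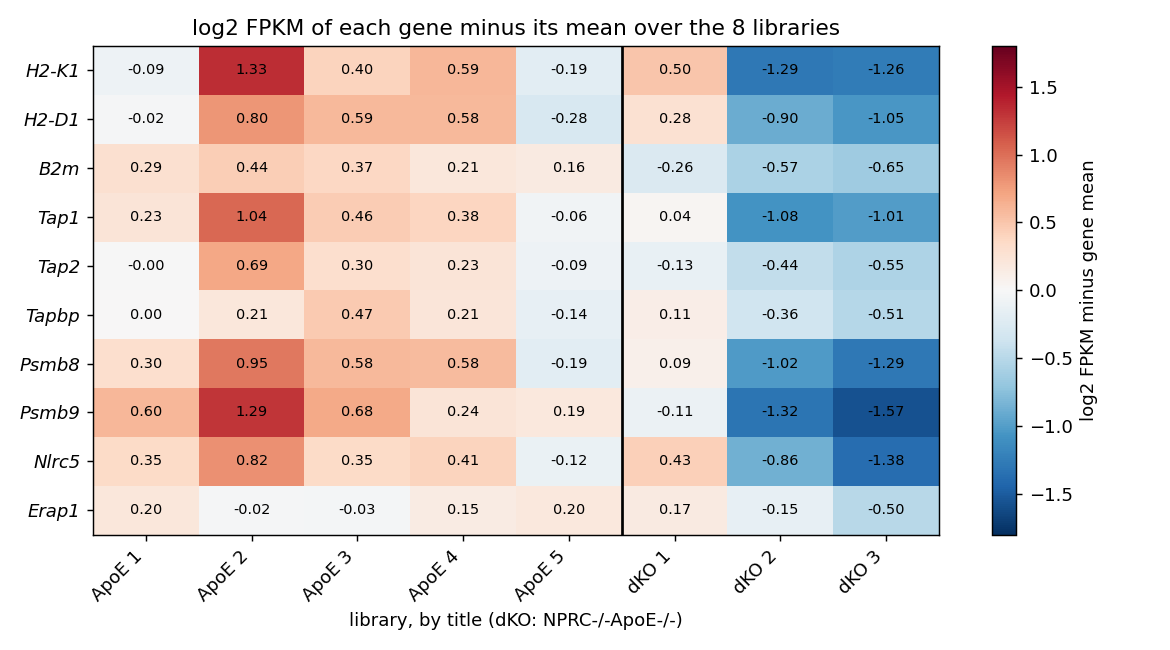
Log2 FPKM of each of the 10 genes (y axis) minus its mean over the 8 libraries, in each library (x axis, by title, dKO for NPRC-/-ApoE-/-), red above and blue below the mean. Values run from −1.57 for Psmb9 in NPRC-/-ApoE-/- 3 to 1.33 for H2-K1 in ApoE-/- 2, and NPRC-/-ApoE-/- 2 and 3 are below the mean for all 10 genes.

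Leaving out a library changed how many of the 10 genes, and of all loci, were lower by title with an unadjusted p-value under 0.05. The number was 10 without NPRC-/-ApoE-/- 1 (11.6% of all loci) and 8 without ApoE-/- 5 (10.2%), against 5 (7.13%) with all libraries. It was 3 without NPRC-/-ApoE-/- 3 (3.41%) and 2 without NPRC-/-ApoE-/- 2 (2.92%). Without NPRC-/-ApoE-/- 1 the median log2 fold change was −1.39. With only the 4 libraries of matching labels, 3 against 1, the median was −1.51 and 7 of the 10 had such a p-value (7.37% of all loci), with the lone library assumed to vary like the others.

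The remaining genes of the pathway are given by list. For scale, 50.9% of all loci were lower by title, and 7.13% were lower with an unadjusted p-value under 0.05. Of the 9 other genes of peptide loading and the inducible proteasome, 8 were lower and 3 (Pdia3, Tapbpl and Psme1) had an unadjusted p-value under 0.05, with a median log2 fold change of −0.34. The locus of Tapbpl also carries the names Cd27 and Mir8113, so it cannot be read as Tapbpl alone. Psme1, part of the interferon-inducible proteasome activator, was at 6.57, 10.6, 8.66, 10.1 and 7.02 FPKM in ApoE-/- 1 to 5 and at 5.25, 4.64 and 4.70 FPKM in NPRC-/-ApoE-/- 1 to 3, so the groups did not overlap by title (log2 fold change −0.81, adjusted p = 0.255). By entry its groups overlapped, and the log2 fold change had the opposite sign (0.06). At the other end was Lnpep, an aminopeptidase of endosomes, with a log2 fold change of 0.11 (adjusted p = 0.759) by title and 0.08 by entry. The 12 constitutive proteasome subunits were all lower, with a median of −0.18 and a range from −0.44 for Psmb4 to −0.07 for Psmd4, and 0 had an unadjusted p-value under 0.05. By entry the medians of these lists were 0.03 and −0.01.

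Of the other class I and class I-like heavy chains, 14 genes in 9 loci, all 9 loci were lower by title and 4 had an unadjusted p-value under 0.05. The lowest was 1 locus that carries the names of the H2-Q genes, at 3.24, 7.17, 3.62, 4.09 and 3.04 FPKM in ApoE-/- 1 to 5 and at 2.44, 1.11 and 1.14 FPKM in NPRC-/-ApoE-/- 1 to 3 (log2 fold change −1.42, adjusted p = 0.255). By entry its log2 fold change was −0.32 with overlapping groups. The counts of the genes that share this locus could not be separated from each other. The assembled H2-D1 locus also spans H2-Q genes on the same strand. Whether the H2-Q and H2-D1 loci were counted apart is not given in the sources used here. The other loci with such a p-value were H2-T23, H2-M3 and Hfe. The highest was Fcgrt, the neonatal Fc receptor, which has the class I fold but binds antibodies, with a log2 fold change of −0.13 (adjusted p = 0.712), and 0.15 by entry. By entry the median of the list was −0.15.

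In a list of 15 genes of interferon signalling and class I regulation, 14 were lower by title and 4 had an unadjusted p-value under 0.05, with a median log2 fold change of −0.28. The 4 include Ifngr1, a chain of the interferon gamma receptor, Jak1, a kinase of that receptor, and Cd274, which does not regulate class I genes but is a T cell inhibitory ligand induced by interferon. Rfxank, a subunit of the factor that binds the X box, was the only one higher by title, at 0.23 (adjusted p = 0.578), and was at −0.06 by entry. By entry the median was −0.10. Ifng, the interferon that induces the pathway, was at 0 to 0.09 FPKM over the 8 libraries. Of the 8 receptors for class I molecules on T and natural killer cells and related receptors of myeloid cells, 2 were tested, Lilrb4a and Pirb, each with a log2 fold change of −0.90 by title, and of −0.03 and −0.06 by entry. The loci of both carry further gene names, Lilr4b with Lilrb4a and Pira2 with Pirb among them. The other 6 were under the filter on low values, Cd8a among them at 0.29 to 1.5 FPKM.

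The summed levels were set beside those of markers of cell types in the aorta. In bulk tissue, fewer cells of a type and less RNA per cell cannot be told apart. The summed FPKM of the 10 class I genes was 323, 474, 394, 379 and 288 in ApoE-/- 1 to 5 and 304, 176 and 165 in NPRC-/-ApoE-/- 1 to 3. That of 10 leukocyte and macrophage markers was 897, 1251, 1803, 1922 and 643 and 1047, 389 and 315, with NPRC-/-ApoE-/- 2 and 3 again lowest. Its highest value was in ApoE-/- 4, and that of the class I genes in ApoE-/- 2. B2m, H2-D1 and H2-K1 made up most of the class I sum in each library, and H2-D1 cannot be read as a single gene. Among the leukocyte and macrophage markers, Lyz2 alone, at 220 to 1544 FPKM, made up most of the sum in each library. All 10 of these markers were lower by title, 4 with an unadjusted p-value under 0.05 (7.13% of all loci), with a median log2 fold change of −1.02, and by entry the median was −0.20. The 10 smooth muscle markers went the other way, with a sum of 1586 to 2113 FPKM in ApoE-/- and 1944 to 3539 in NPRC-/-ApoE-/- by title, and all 10 higher with an unadjusted p-value under 0.05 by title, against 6.51% of all loci (median log2 fold change 0.77, 0.17 by entry). The 10 endothelial markers summed to 113 to 127 and 104 to 119 FPKM.

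Lymphocyte markers were low throughout. The 10 markers of T and natural killer cells summed to 5.54 to 10.2 FPKM in ApoE-/- and 3.04 to 6.71 in NPRC-/-ApoE-/- by title, and 8 of them were under the filter. The other 2 were lower by title with an unadjusted p-value under 0.05 (edgeR), as were 7.13% of all loci. These 2, Cd4 and Nkg7, passed the filter through the ApoE-/- libraries, where they were higher. In NPRC-/-ApoE-/- they were at 0.48 to 1.28 and 0.37 to 1.1 FPKM. No support is drawn from their direction. Cd4 had a log2 fold change of −1.56 (adjusted p = 0.222) without overlap between groups, and Nkg7 had −1.48 (adjusted p = 0.336). By entry they were at 0.28 and −0.39, with overlapping groups. Of the 8 under the filter, Gzmb (0.65 and 0.66 FPKM) and Prf1 (0.35 and 0.36 FPKM) had slightly higher means in NPRC-/-ApoE-/- by title. The rest had lower means. By entry Cd8b1 was higher without overlap, at 0.17 to 0.65 FPKM in ApoE-/- and 0.77 to 1.41 FPKM in NPRC-/-ApoE-/-, and was not tested. Among the 20506 loci tested, 83 were higher without overlap by entry. The groups of Cd8a overlapped by entry, at 0.29 to 0.79 FPKM in ApoE-/- and 0.71 to 1.5 FPKM in NPRC-/-ApoE-/-. The 5 B cell markers summed to 18.9 FPKM in ApoE-/- 2, the library in which 8 of the 10 class I genes were highest, and to 0.51 to 3.23 in the other 7. Brown fat markers summed to 139 to 629 FPKM by title in ApoE-/- and 380 to 600 in NPRC-/-ApoE-/-, white fat markers to 111 to 443 and 153 to 309, and skeletal muscle markers to 0.84 to 10.5 and 5.88 to 8.52. The part of these markers in the differences of the class I genes was not tested.

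**Figure D5:**
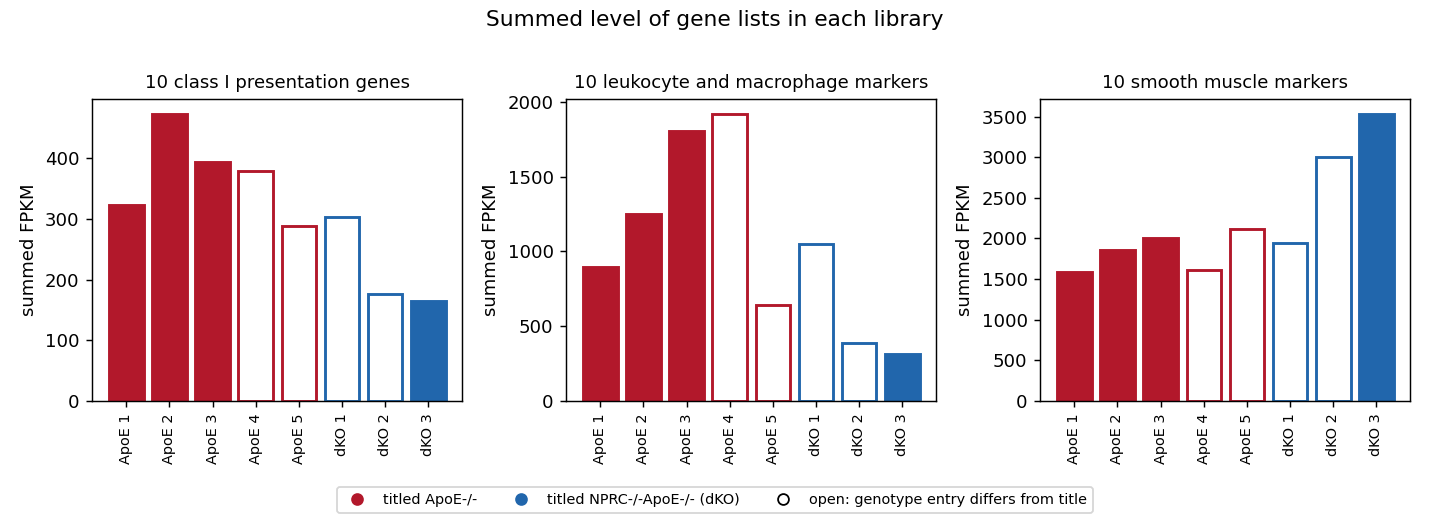
Summed FPKM (y axes, from 0) of the 10 class I presentation genes, 10 leukocyte and macrophage markers and 10 smooth muscle markers in the 8 libraries (x axis), red for libraries titled ApoE-/-, blue for those titled NPRC-/-ApoE-/- (dKO) and open where the genotype entry differs. NPRC-/-ApoE-/- 2 and 3 have the lowest class I sums (176 and 165) and leukocyte sums (389 and 315) and the highest smooth muscle sums (3001 and 3539).

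The 5 genes whose log2 CPM over the 8 libraries was most like the mean of the 10 class I genes, among 13350 loci with 1 name outside the lists used here, were genes of leukocytes. They were Cxcr3 (r = 0.995), a chemokine receptor of activated T cells, H2-Aa (r = 0.994), a chain of MHC class II, Snx20 (r = 0.991), Tnfrsf13b (r = 0.991), a receptor of B cells, and Btk (r = 0.990), a kinase of B and myeloid cells. These are descriptions over 8 libraries, and 735 loci had r over 0.9. Cxcr3 was at 0.43 to 1.44 FPKM in ApoE-/- and 0.07 to 0.47 in NPRC-/-ApoE-/- by title. It passed the filter through ApoE-/- libraries alone. Snx20 and Tnfrsf13b were above 1 FPKM in NPRC-/-ApoE-/- 1 but not in 2 or 3. They too passed through ApoE-/- libraries. H2-Aa was at 42.5, 84.6, 63.6, 56.02 and 30.01 FPKM in ApoE-/- 1 to 5 and at 28.6, 8.44 and 6.54 FPKM in NPRC-/-ApoE-/- 1 to 3. Its titled groups did not overlap, those of the other 4 did, and by entry all 5 overlapped. These genes were chosen for their likeness to the class I genes, so this is no separate result.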

How the data were processed

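Poly(A) RNA of 8 aortas was analysed from 1 table. The authors trimmed reads (cutadapt 1.9 and GRCm38 are in the submitters' processing notes), mapped them with HISAT2, assembled loci with StringTie and deposited whole-number counts per locus without normalization. The deposited FPKM values are scaled by the authors to transcript length and mapped fragments. How counts were derived, and whether they used strand, is not given in the sources used here.

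Counts were tested for the 20506 loci that reached 1 FPKM in 3 or more libraries (R 4.3.3, edgeR 4.0.16, TMM, two-sided quasi-likelihood test, Benjamini-Hochberg adjustment over all loci), by title and by genotype entry, 5 libraries against 3. Standard errors given with edgeR were calculated as the absolute log2 fold change over the square root of the F value. DESeq2 1.42.0, limma 3.58.1, other filters, scalings, a replicate block and each library left out were alternatives. Total counts were high, so the number of libraries limits the precision (biological coefficient of variation 0.327). Whether libraries come from separate mice is not stated per library, so p-values measure the spread between these libraries. The genes and lists were chosen with earlier results of these data known. All 10 genes are named, and from every other list the lowest and highest by title. The result of 1 gene of these lists is not reported here. Genes past the unadjusted threshold, and those whose groups were apart, were named after their values were seen. Promoter windows are from the RefSeq table.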

Additional observations from a re-analysis of the deposited data

Results flagged for a closer look

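The summed FPKM of 5 B cell markers was 18.9 in ApoE-/- 2, far from the other libraries of its group, which had 1.16 to 3.23 by title and 0.51 to 3.23 by genotype entry. Of 46 groups looked at for a library far from the others, these were the 2 found, while chance gives about 2.3. Both are the same sum in the same library under the 2 labels, and the 46 groups share libraries, so they are not independent. ApoE-/- 2 was also the library with the highest level of 8 of the 10 class I genes.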

How the results depend on the processing

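With 19 or 20 alternatives a gene to the comparison by title, the genotype entry among them, all 195 log2 fold changes of the 10 genes were below 0. These and the values by entry are refits of the same 8 libraries, or of some of them, and are not independent. By entry, with 12 alternatives a gene, 118 of 120 log2 fold changes were below 0. The exceptions came without NPRC-/-ApoE-/- 3, where B2m was at 0.0871 and Erap1 at 0.14 (with each library left out, −0.28 to 0.0871 and −0.14 to 0.14). By title, the numbers of loci with an adjusted p-value under 0.05 (0 with edgeR), loci that met the criterion of the study (712) and class I genes lower with an unadjusted p-value under 0.05 (5) moved as follows, and the cause was not tested. Apart from the fits whose shares are printed above, the share of all loci lower at that unadjusted p-value is not given. Without it, a higher count of class I genes cannot be read as a stronger result for them. DESeq2 gave 650 loci by adjusted p-value and 8 genes. With limma 8 genes were lower at a pseudocount of 0.1, and at a pseudocount of 1 there were 2 loci, 175 by the criterion and 8 genes. With voom and quality weights there were 130 loci, 1491 by the criterion and 10 genes, B2m (adjusted p = 0.039) and Psmb9 (0.0496) among the loci. A mean of at least 5 FPKM left fewer genes to test and gave 2 loci, 114 by the criterion and 2 genes, and without a filter 2287 loci met the criterion. In the libraries with matching labels there were 14 loci, 1815 by the criterion and a median of −1.51. With the entry in place of the title, 95 loci met the criterion, with 0 genes and a median of −0.35. With each library left out, the ranges were 0 to 45 loci, 403 to 1635 by the criterion, 2 to 10 genes and medians of −1.39 to −0.62. The criterion count was 1635 without NPRC-/-ApoE-/- 1, 1132 without ApoE-/- 5, 404 without NPRC-/-ApoE-/- 2 and 403 without NPRC-/-ApoE-/- 3. By entry, DESeq2 gave 9 loci by adjusted p-value, limma at a pseudocount of 1 gave 23 by the criterion and no filter 785. With each library left out, the ranges by entry were 0 to 2 loci, 84 to 240 by the criterion, 0 to 0 genes and medians of −0.80 (without ApoE-/- 4) to −0.0541 (without NPRC-/-ApoE-/- 3). Same-numbered libraries did not deviate together (r of −0.27, −0.13 and −0.01). In these 6 libraries the replicate block gave 0 loci by adjusted p-value, 800 by the criterion, 5 genes and a median of −1.06, and the fit without the block gave 1, 917, 6 and −0.92. With 3 libraries in a group, a single library moves these values, as the ranges show.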
